A study of Homo sapiens with 46 samples.

Results

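The genes described are 10 integrin subunits that epithelial cells are known to use: the alpha subunits ITGA2, ITGA3, ITGA5, ITGA6 and ITGAV and the beta subunits ITGB1, ITGB4, ITGB5, ITGB6 and ITGB8. They were listed by gene symbol, with earlier results of these data known. They are 10 of the 26 integrin genes and of the 62756 usable genes in the count table. All 10 were among the 21484 genes with enough counts to be tested. RNA was sequenced from DLD-1, an established colorectal adenocarcinoma line, and from DLD-1 lines in which 1 lamin gene carries an auxin-inducible degron (AID) tag at the N-terminus of its endogenous protein. The tag lets the plant hormone auxin trigger removal of the tagged protein. The 4 lines are the untagged parental line (PAR) and the lines tagged on lamin A/C (LAC), lamin B1 (LB1) or lamin B2 (LB2). Every line was sampled after 0, 16 and 96 h of 1 mM auxin, which had been dissolved in DMSO, and the parental samples show what auxin does without a tag. The labels do not say whether the 0 h wells received DMSO, whether a tagged line is 1 clone, or what other changes the tagged lines carry. The 12 groups hold 46 libraries, with 4 in each group except LB1 at 0 h and LB2 at 96 h, which hold 3. Each library is 1 well of a culture plate, so p-values measure the spread between wells, which may be technical.

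Integrins are receptors made of 1 alpha and 1 beta chain that span the cell membrane and attach the cell to its matrix. In epithelia, integrin alpha6-beta4 is the laminin receptor of the hemidesmosome and is linked to keratin filaments, while alpha3-beta1 binds laminin and alpha2-beta1 binds collagen, both linked to actin. Integrin alpha5-beta1 binds fibronectin, and alphaV pairs with beta5, beta6 or beta8 to bind ligands with an RGD motif, among them vitronectin and the latent form of TGF-beta.

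Library depth ranged from 479446 to 37309421 counts with a median of 11533218, and 6 libraries held under 5000000, 5 of them from 0 h groups. Of 12 colorectal epithelial markers, 10 averaged at least 1 CPM (TMM-scaled counts-per-million), while CDX1 and LGALS4 averaged 0.0295 and 0.691 CPM. Summed over a group, these markers ranged from 6662 CPM in LB1 at 96 h to 10108 CPM in LB1 at 16 h. The fibroblast markers COL1A2 and DCN were at 0 in all 46 libraries, while COL1A1 averaged 1.47 CPM and PDGFRB 0.792 CPM. None of the 6 leukocyte markers or the 3 keratinocyte markers averaged 1 CPM. Summed fibroblast markers ranged over groups from 1.41 to 3.93 CPM, endothelial markers from 4.18 to 10.6 CPM, most of it VWF at 6.72 CPM, and keratinocyte markers from 0.376 to 3.44 CPM. The tag acts on protein, and no tagged lamin transcript passed the test against its own 0 h group, so transcript levels do not check its removal. LMNA in LAC changed by -0.68 (adjusted p = 0.0635) on the log2 scale at 96 h, LMNB1 in LB1 by -0.13 (adjusted p = 0.773) and LMNB2 in LB2 by 0.31 (adjusted p = 0.551), by edgeR.

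Of the libraries that lay apart from their groups for these genes, 3 are given first, singled out after their values were seen. All 3 held under 5000000 counts. LAC 0 h replicate 1 had 3318819, LB2 0 h replicate 1 had 1894447 and LB2 16 h replicate 3 had 479446. LAC 0 h replicate 1 had 80.9 CPM of ITGA2, 216 of ITGAV and 109 of ITGB1, where the other 3 libraries of its group had 139 to 177, 278 to 385 and 205 to 228. LB2 0 h replicate 1 had 454 CPM of ITGA3 and 420 of ITGB4, where the others had 247 to 277 and 232 to 254. LB2 16 h replicate 3, the library in which ITGB6 had a count of 0, had 63.1 CPM of ITGA2 against 164 to 293 in the others. A rule on the gap to the nearest library in groups of 4 marked LB2 0 h replicate 1 and also LAC 16 h replicates 1 and 3 and PAR 96 h replicate 2, each of those for 1 subunit. A second measure that differed between groups was GC content. Over 8547 well-measured genes, the log2 change of a gene in LAC correlated with its GC content with a Spearman rho of -0.71 at 16 h and -0.66 at 96 h, whereas in the parental line rho was 0.01 and 0.02. For LB2 it was -0.48 at 16 h and -0.21 at 96 h, and for LB1 it was 0.23 and -0.17. These correlations are across genes of the same libraries, and genes are not independent replicates. A second fit, in which the trend with GC content and length was removed from every library, is therefore given beside the called subunit changes and the counts of partner genes.

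The 10 subunits fell into 6 with low GC content, from 37.8% in ITGB8 to 42.9% in ITGA6, and 4 with high GC content, ITGB5 at 54.3%, ITGA5 at 54.5%, ITGA3 at 61.3% and ITGB4 at 63.7%. ITGAV, ITGB1, ITGB6 and ITGA2 were at 38.3%, 40.0%, 40.1% and 40.2%.

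Levels were first compared per length, since a longer transcript gives more reads. Averaged over the 46 libraries, ITGB4 with 49.9 and ITGA6 with 48.7 CPM per kb were highest when all annotated exon bases were counted, followed by ITGB5 with 32.1, ITGA3 with 28.8, ITGA2 with 23.4, ITGAV with 19.5 and ITGB1 with 13.8. With the length of the principal transcript, a length chosen after seeing the data, ITGA6, ITGA3 and ITGB4 stood at 57.9, 57.8 and 57.0 CPM per kb, ITGAV and ITGB1 at 53.6 and 53.2, ITGB5 at 47.9 and ITGA2 at 23.4. The order of these 7 therefore depends on the length used. ITGA5, ITGB8 and ITGB6 were the lowest in that order under each of the 3 lengths tried, with 6.39, 1.68 and 1.105 CPM per kb of exon. Among the partners of alphaV, ITGB5 exceeded ITGB8 and ITGB6 under all 3 lengths.

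**Figure D1:**
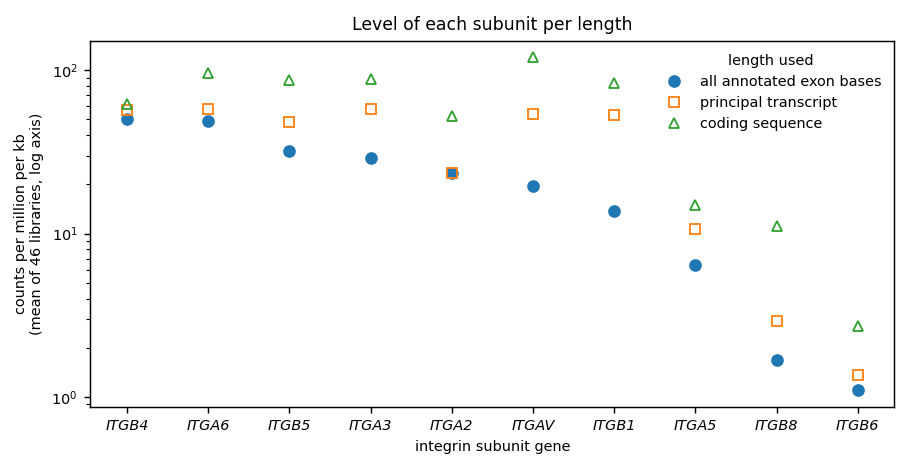
CPM per kb of each subunit, as the mean of 46 libraries, on a log axis, with the length taken as all annotated exon bases (circles), the principal transcript (squares) or the coding sequence (triangles). ITGA5, ITGB8 and ITGB6 are the 3 lowest with every length, while the order of the other 7 changes with it.

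Of the other 16 integrin genes, 11 had enough counts to be tested. In CPM, not corrected for length, the highest was ITGA1, a collagen-binding chain, with 13.6. ITGAE, the chain that pairs with beta7 to bind E-cadherin, had 10.3 CPM and ITGA7, a laminin-binding chain, 7.41 CPM. Per kb of exon the order was ITGAE with 1.55, ITGA7 with 0.816 and ITGA1 with 0.733 CPM. ITGAE was thus above ITGB6, which had 1.105. ITGA4 and ITGA8 were at 0 in 42 of 46 libraries each.

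Across the 12 group means the widest range was that of ITGB8, with a ratio of 3.80 between the highest and the lowest group, then ITGB5 with 3.51, ITGA3 with 3.46, ITGB6 with 2.89 and ITGB4 with 2.71. ITGA6 and ITGA2 ranged 2.14-fold and 2.12-fold, ITGA5 1.74-fold, ITGB1 1.55-fold and ITGAV 1.48-fold. ITGB1 and ITGAV varied least.

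Promoter sequences are shown for 4 subunits whose transcripts changed together or against each other: ITGB8, which rose at 16 h, ITGB6, which with ITGB8 was low in LB2, and ITGA6 and ITGB5, which fell together in LB1. RefSeq promoters (GRCh38.p14) were matched for 8 of the 10 genes, the unmatched ones being ITGA3 and ITGB4. Each sequence is the 250 bases before the RefSeq start, with matches to the GC box (GGGCGG, either strand) in capitals. ITGB8 is chr7:20330650-20330899 on the plus strand, ITGB6 chr2:160200273-160200522 on the minus strand, ITGA6 chr2:172427086-172427335 on the plus strand and ITGB5 chr3:124901419-124901668 on the minus strand. The genes as counted begin at 20330702 for ITGB8 and 160200313 for ITGB6, so part of both windows lies inside the counted gene. The first listed RefSeq entry of each gene was used.
ITGB8: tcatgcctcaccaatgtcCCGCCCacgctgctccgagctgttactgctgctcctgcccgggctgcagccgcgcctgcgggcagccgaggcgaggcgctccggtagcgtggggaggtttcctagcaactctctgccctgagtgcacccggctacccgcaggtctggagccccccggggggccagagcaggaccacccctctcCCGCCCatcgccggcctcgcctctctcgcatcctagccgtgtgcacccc
ITGB6: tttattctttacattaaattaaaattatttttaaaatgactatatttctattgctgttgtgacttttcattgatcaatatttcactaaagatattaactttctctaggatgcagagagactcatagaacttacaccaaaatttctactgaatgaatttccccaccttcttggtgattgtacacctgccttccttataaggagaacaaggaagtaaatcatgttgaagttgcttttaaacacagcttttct
ITGA6: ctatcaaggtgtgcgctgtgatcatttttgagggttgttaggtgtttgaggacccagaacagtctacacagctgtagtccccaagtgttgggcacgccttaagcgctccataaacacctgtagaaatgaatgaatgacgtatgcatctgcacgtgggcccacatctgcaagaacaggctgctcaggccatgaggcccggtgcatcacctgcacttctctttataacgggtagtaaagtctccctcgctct
ITGB5: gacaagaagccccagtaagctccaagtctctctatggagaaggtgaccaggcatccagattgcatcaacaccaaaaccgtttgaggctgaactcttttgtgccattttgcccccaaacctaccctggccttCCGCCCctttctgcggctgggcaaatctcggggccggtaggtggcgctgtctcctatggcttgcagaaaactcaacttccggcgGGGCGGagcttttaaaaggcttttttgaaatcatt
GC content over these 250 bases was 71.2% for ITGB8, 30.0% for ITGB6, 50.8% for ITGA6 and 52.8% for ITGB5. Searched over 250 bases before to 50 after the start, the GC box occurred in 6 of the 8 promoters and in 45.0% of all 35116 promoters of this length. The TEAD motif GGAATG occurred in 2 of 8, ITGA5 and ITGB1, and in 14.0% of all, and the AP-1 motif TGANTCA in 1 of 8, ITGA5, and in 7.71% of all. The GC box of ITGA6 lay after the start, outside the bases shown, and ITGAV and ITGB6 held none of the 3 motifs in this window.

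Within lines, 13 of the 80 tests of a subunit against the 0 h group of its line passed an adjusted p of 0.05 over all genes tested (edgeR quasi-likelihood test with Benjamini-Hochberg adjustment, used for every adjusted p below unless named otherwise). In the parental line, 0 of 10 passed at 16 h, where 9.01% of all genes passed (0 of 10 also at an unadjusted p under 0.05, 1 by the trend-removed fit and 0 by DESeq2), and 1 of 10 at 96 h, lower, where 7.78% passed and 3.84% were lower. In LAC, 2 of 10 passed at 16 h, both higher, against 1.78% of all genes and 1.34% higher, and 5 of 10 at 96 h, 3 higher and 2 lower, against 15.4% of all genes, 6.74% higher and 8.64% lower. In LB1, 0 of 10 passed at 16 h, against 1.50% (0 at an unadjusted p under 0.05 and 0 by DESeq2), and 4 of 10 at 96 h, all lower, against 3.17%, with 2.12% lower. In LB2, 1 of 10 passed at 16 h, higher, against 1.81%, with 1.43% higher, and 0 of 10 at 96 h, against 3.55% (1 at an unadjusted p under 0.05 and 0 by DESeq2). The median log2 change of the 10 was -0.54 in LB1 at 96 h and 0.34 in LAC at 16 h, and lay between -0.21 and 0.14 in the other 6 comparisons. The split of all called genes moved with the scaling. The share that was higher was 50.7% in parental cells at 96 h, 43.8% in LAC at 96 h, 33.1% in LB1 at 96 h, 74.9% in LAC at 16 h and 79.1% in LB2 at 16 h, and with library size as the sole scaling it was 30.9%, 66.8%, 47.5%, 58.4% and 55.7%. No called change of a subunit changed sign under that or any other alternative run. A lower transcript level in these pooled cells cannot tell fewer cells that use the gene apart from less RNA per cell.

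**Figure D2:**
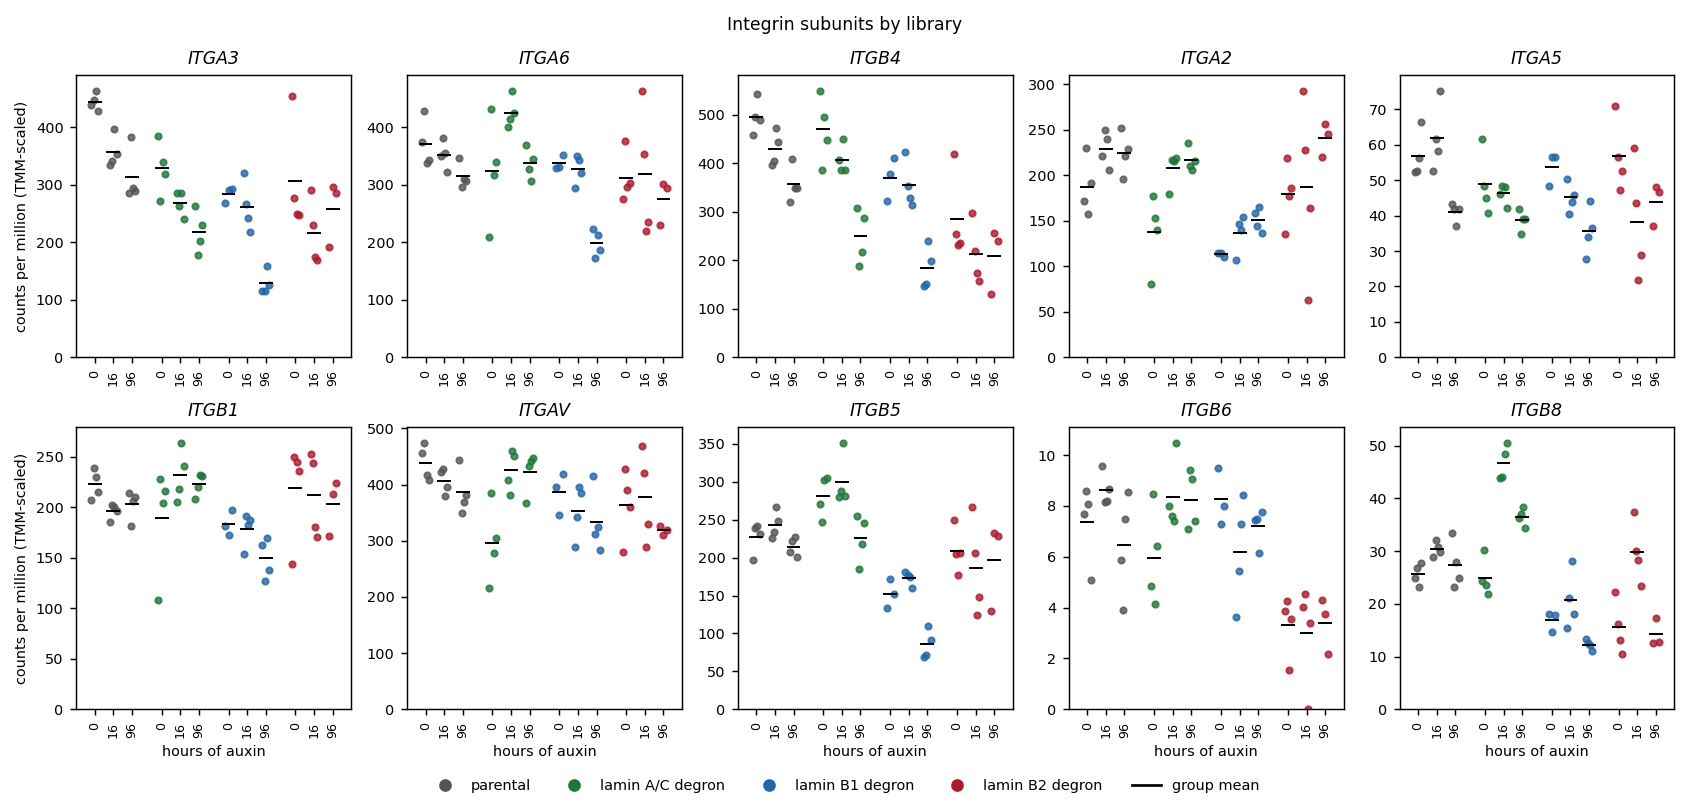
CPM (TMM-scaled) of each subunit in all 46 libraries, by line and hours of auxin; points are libraries and bars are group means, and each panel has its own scale from 0. ITGA3, ITGA6, ITGB4 and ITGB5 of LB1 are lowest at 96 h, and ITGB8 of LAC and LB2 is highest at 16 h.

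**Figure D3:**
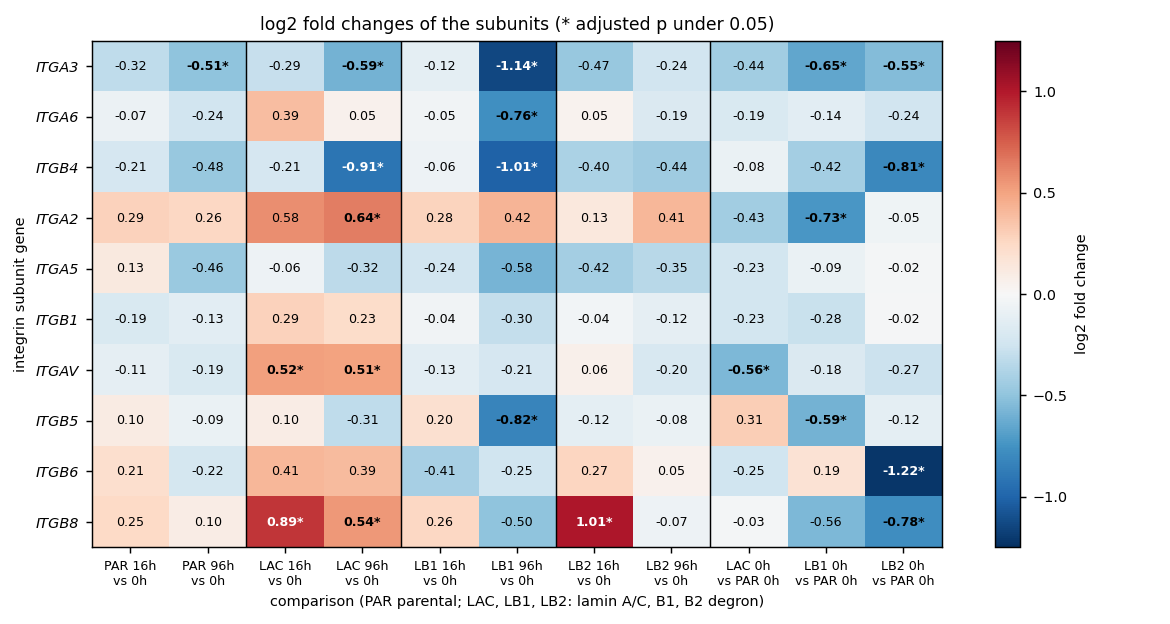
Log2 fold changes of the subunits (rows) in the 8 comparisons with 0 h of the same line and the 3 comparisons with the parental line at 0 h (columns); asterisks mark an adjusted p under 0.05 in edgeR. The called changes of LB1 at 96 h are all lower, and those of LAC at 96 h are of both signs.

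ITGA3 encodes the alpha chain of the laminin receptor alpha3-beta1 (GRCh38, chromosome 17, 50055968 to 50090481, plus strand). In parental cells it stood at 439, 447, 464 and 429 CPM at 0 h, 334, 341, 396 and 353 at 16 h and 286, 384, 295 and 288 at 96 h. Neither auxin group overlapped the 0 h group. The fall of 0.51 ± 0.16 (log2, SE) at 96 h passed the test (adjusted p = 0.0452), and the 16 h value of -0.32 did not (adjusted p = 0.210). The 96 h call was lost without any 1 of the 4 libraries at 0 h or of replicates 1, 3 and 4 at 96 h (-0.45 to -0.52, adjusted p = 0.0757 to 0.111). It held without replicate 2 at 96 h (-0.58, adjusted p = 0.0374), and the value was -0.58 with the GC trend removed (adjusted p = 1.07e-05). In LB1 it went from 269, 290 and 292 CPM at 0 h to 115, 115, 158 and 126 at 96 h, with no overlap, a change of -1.14 ± 0.18 (0.454-fold, adjusted p = 1.59e-05). That was the largest change of any of the 10 within a line, and it was -0.99 with the GC trend removed (adjusted p = 3.09e-10). LB1 at 16 h had 321, 266, 242 and 217 CPM, which overlapped the 0 h group.

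In LAC, ITGA3 read 385, 272, 340 and 318 CPM at 0 h and 263, 178, 202 and 230 at 96 h, without overlap. The change of -0.59 ± 0.16 passed (adjusted p = 0.0104), but it was -0.18 with the GC trend removed (adjusted p = 0.215) and missed the threshold without LAC 96 h replicate 2 (-0.50, adjusted p = 0.0622). LB2 showed no called change, with 454, 277, 249 and 247 CPM at 0 h, 291, 229, 174 and 169 at 16 h and 192, 296 and 285 at 96 h. Before auxin ITGA3 was lower than in parental cells in LB1 (-0.65 ± 0.18, adjusted p = 0.0238), a call lost without any 1 of the 3 LB1 libraries or of parental replicates 2 and 3 (-0.61 to -0.67, adjusted p = 0.0544 to 0.124). It was also lower in LB2 (-0.55 ± 0.16, adjusted p = 0.0283), at -0.76 without LB2 0 h replicate 1 (adjusted p = 0.000638). That call was lost without any 1 of LB2 replicates 2, 3 and 4 or parental replicates 2 and 3 (-0.46 to -0.53, adjusted p = 0.0607 to 0.120). For LAC the difference of -0.44 missed the threshold (adjusted p = 0.0590), though the groups did not overlap, and it was -0.71 with the GC trend removed (adjusted p = 1.09e-07). Parental cells before auxin thus had the highest ITGA3 mean of the 12 groups, 445 ± 14.8 CPM (SD, n = 4), and LB1 at 96 h the lowest, 129 ± 20.3 CPM (SD, n = 4).

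ITGB4 encodes the beta chain found with alpha6 in hemidesmosomes (GRCh38, chromosome 17, 75721328 to 75757818, plus strand). The gene GALK1 overlaps it on the opposite strand, and had 9901 counts in all libraries against 198423 for ITGB4; whether the counting used strand is not given in the sources used here. In LB1, ITGB4 read 322, 378 and 412 CPM at 0 h, 424, 354, 328 and 314 at 16 h and 146, 150, 239 and 198 at 96 h. Every library at 96 h was below every library at 0 h and 16 h, and the change from 0 h was -1.01 ± 0.20 (0.496-fold, adjusted p = 0.000871). In LAC it read 550, 387, 496 and 449 CPM at 0 h, 406, 387, 450 and 387 at 16 h and 308, 188, 218 and 287 at 96 h. Here too the 96 h group lay below both others, with a change of -0.91 ± 0.19 (0.533-fold, adjusted p = 0.000574). With the GC trend removed the fall was 0.83 in LB1 (adjusted p = 2.49e-05) and 0.44 in LAC (adjusted p = 0.0121). Both calls held, and the smaller value was that in LAC.

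In parental cells ITGB4 read 458, 496, 543 and 490 CPM at 0 h and 320, 409, 350 and 348 at 96 h, which did not overlap. The change of -0.48 missed the threshold (adjusted p = 0.1003) and was -0.57 with the GC trend removed (adjusted p = 0.00137). LB2 started lower, at 420, 254, 232 and 236 CPM, all below the 4 parental libraries, a difference of -0.81 ± 0.19 (adjusted p = 0.00317). Without LB2 0 h replicate 1 it was -1.02 (adjusted p = 0.000107). LB2 then read 298, 220, 174 and 158 CPM at 16 h and 130, 255 and 241 at 96 h, where neither change from 0 h passed (adjusted p = 0.280 and 0.258).

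ITGA6, the alpha chain that pairs with beta4 and also with beta1 (GRCh38, chromosome 2, 172427354 to 172506459, plus strand), moved with ITGB4 only in part. In LB1 it read 329, 331 and 352 CPM at 0 h, 294, 349, 343 and 320 at 16 h and 223, 173, 213 and 186 at 96 h. The 96 h libraries were the lowest 4 of the line, and the change was -0.76 ± 0.17 (0.589-fold, adjusted p = 0.00363), or -0.74 with the GC trend removed (adjusted p = 6.95e-06). In LAC, where ITGB4 fell, ITGA6 changed by 0.05 ± 0.16 at 96 h (adjusted p = 0.884), with 209, 432, 317 and 340 CPM at 0 h against 369, 327, 306 and 346 at 96 h. No other test of ITGA6 within a line passed, and before auxin it was 313 to 371 CPM in the 4 group means, with no called difference from parental cells.

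ITGA2 encodes the collagen-binding alpha2 chain (GRCh38, chromosome 5, 52989340 to 53094779, plus strand). Its estimate was above 0 in all 8 comparisons with 0 h, from 0.13 to 0.64, and of these LAC at 96 h passed. In LB2 at 16 h the sign changed to -0.06 with the GC trend removed and to -0.16 without LB2 16 h replicate 1. LAC read 80.9, 177, 153 and 139 CPM at 0 h, 179, 217, 216 and 219 at 16 h and 235, 210, 205 and 216 at 96 h. Both auxin groups lay above the 0 h group, by 0.58 at 16 h (adjusted p = 0.0873) and 0.64 ± 0.19 at 96 h (1.56-fold, adjusted p = 0.0183), with 0.42 at 96 h once the GC trend was removed (adjusted p = 0.0167). Without LAC 0 h replicate 1, the lowest library, the 96 h value was 0.48 and missed the threshold (adjusted p = 0.112), as did the 0.60 without LAC 96 h replicate 1 (adjusted p = 0.0509). LB1 started lower than parental cells, at 115, 114 and 110 CPM against 171, 230, 157 and 191, a difference of -0.73 ± 0.22 (0.603-fold, adjusted p = 0.0403). That call was lost without any 1 of the 3 LB1 libraries or of parental replicates 1, 2 and 4 (-0.58 to -0.76, adjusted p = 0.0673 to 0.199). With the GC trend removed it was -0.78 (adjusted p = 0.000116).

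ITGA5, the alpha chain of the fibronectin receptor (GRCh38, chromosome 12, 54395261 to 54419266, minus strand), passed none of the 17 tests. The nearest were LB1 at 96 h, with 48.3, 56.4 and 56.5 CPM at 0 h and 27.7, 34.1, 44.2 and 36.6 at 96 h (-0.58, adjusted p = 0.0542), and parental cells at 96 h, with 52.3, 52.6, 56.3 and 66.5 CPM at 0 h and 43.3, 41.9, 37.1 and 41.8 at 96 h (-0.46, adjusted p = 0.0651). The groups did not overlap in either comparison. Both passed once the GC trend was removed, at -0.51 (adjusted p = 0.00684) and -0.55 (adjusted p = 0.000733). ITGB1, the beta chain shared by alpha2, alpha3, alpha5 and alpha6 (GRCh38, chromosome 10, 32887273 to 33005792, minus strand), also passed none. Its group means ran from 150 ± 20.1 CPM (SD, n = 4) in LB1 at 96 h to 232 ± 25.8 CPM (SD, n = 4) in LAC at 16 h, and its 95% interval in LB1 at 96 h was -0.63 to 0.03.

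ITGAV encodes the alpha chain shared by beta5, beta6 and beta8 (GRCh38, chromosome 2, 186590010 to 186680901, plus strand). In LAC it read 216, 385, 278 and 306 CPM at 0 h, 408, 382, 460 and 450 at 16 h and 367, 433, 441 and 447 at 96 h. The auxin groups were higher apart from 1 overlapping library, LAC 0 h replicate 2, by 0.52 ± 0.14 at 16 h (1.43-fold, adjusted p = 0.0440) and 0.51 ± 0.14 at 96 h (1.42-fold, adjusted p = 0.0109). These values were 0.19 (adjusted p = 0.250) and 0.20 (adjusted p = 0.0926) with the GC trend removed. They were 0.41 (adjusted p = 0.285) and 0.39 (adjusted p = 0.0886) without LAC 0 h replicate 1. The 16 h call was also lost without any 1 of the other LAC libraries at 0 and 16 h except 0 h replicate 2 (0.49 to 0.56, adjusted p = 0.0634 to 0.171), and held in 5 of 17 alternatives. The 96 h call held in 14 of 17. LAC before auxin was below all parental libraries, which read 457, 475, 417 and 409 CPM, by -0.56 ± 0.14 (adjusted p = 0.00438). That difference was -0.41 without LAC 0 h replicate 1 (adjusted p = 0.0522) and -0.30 with the GC trend removed (adjusted p = 0.00657). After 16 and 96 h of auxin the LAC means, 425 and 422 CPM, were near the parental mean of 439 CPM at 0 h. ITGAV passed in no comparison of the other 3 lines.

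ITGB5, a partner of alphaV in vitronectin binding (GRCh38, chromosome 3, 124761948 to 124901418, minus strand), had its highest and lowest levels in different tagged lines. LB1 read 133, 171 and 152 CPM at 0 h, 181, 177, 174 and 161 at 16 h and 69.2, 71.7, 110 and 90.9 at 96 h. The 96 h libraries lay below all others of the series, with a change of -0.82 ± 0.18 (0.566-fold, adjusted p = 0.00242), or -0.75 with the GC trend removed (adjusted p = 2.34e-05). LB1 was already lower than parental cells before auxin, by -0.59 ± 0.18 (adjusted p = 0.0479), a call lost without any 1 of the 3 LB1 libraries or of parental replicates 2, 3 and 4 (-0.50 to -0.65, adjusted p = 0.0687 to 0.255). LAC had the highest means, 281 ± 27.6 CPM (SD, n = 4) before auxin and 300 ± 34.4 CPM (SD, n = 4) after 16 h, with 271, 246, 302 and 304 CPM at 0 h against 197, 239, 242 and 231 in parental cells. These groups did not overlap, and the difference of 0.31 did not pass (adjusted p = 0.196).

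ITGB6 encodes an epithelial partner of alphaV that binds latent TGF-beta (GRCh38, chromosome 2, 160099667 to 160200313, minus strand). It was the least abundant of the 10, with 0 to 298 counts in a library, and its precision is limited accordingly. In LB2 before auxin it read 3.88, 4.27, 1.56 and 3.57 CPM, from 7, 69, 17 and 14 counts, against 7.68, 8.58, 8.07 and 5.07 CPM in parental cells, from 63, 104, 45 and 21 counts. The groups did not overlap, and the difference was -1.22 ± 0.29 (0.429-fold, adjusted p = 0.00440), or -1.30 with the GC trend removed (adjusted p = 0.000460). Without LB2 0 h replicate 3 it was -0.90 (adjusted p = 0.0603). The level in LB2 stayed low with auxin, at 4.03, 4.52, 0 and 3.41 CPM at 16 h and 4.29, 3.76 and 2.18 at 96 h. The count of 0 came from the least deep library, where it allows up to 3 counts, or 6.26 CPM. In the other 3 lines the group means lay between 5.97 and 8.64 CPM, and no test of ITGB6 within a line passed.

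ITGB8 encodes the partner of alphaV that also binds latent TGF-beta and was the subunit with the largest rise (GRCh38, chromosome 7, 20330702 to 20415754, plus strand). In LB2 it read 22.2, 16.3, 13.2 and 10.4 CPM at 0 h, 37.4, 30.0, 28.3 and 23.4 at 16 h and 12.7, 17.4 and 12.8 at 96 h. Every library at 16 h was above every other library of the line, a change of 1.01 ± 0.17 (2.02-fold, adjusted p = 0.000347), and at 96 h the level was again within the 0 h range (-0.07 ± 0.18, adjusted p = 0.920). In LAC it read 24.3, 30.2, 23.7 and 21.9 CPM at 0 h, 43.8, 44.1, 48.4 and 50.6 at 16 h and 36.4, 37.0, 38.3 and 34.5 at 96 h. The 3 groups did not overlap: 16 h was highest, 0.89 ± 0.16 above 0 h (1.86-fold, adjusted p = 0.000733), and 96 h lay between, 0.54 ± 0.16 above 0 h (1.45-fold, adjusted p = 0.0130).

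With the GC trend removed, the 16 h changes of ITGB8 were 0.82 in LB2 (adjusted p = 0.00422) and 0.57 in LAC (adjusted p = 0.0416), both still called, and the 96 h change in LAC was 0.26 and not called (adjusted p = 0.305). Both 16 h calls held in 16 of 17 alternatives. They were missed in a fit to the compared groups alone, at 0.92 in LB2 (adjusted p = 0.617) and 0.87 in LAC (adjusted p = 0.0648). In parental cells ITGB8 read 24.9, 26.7, 23.1 and 27.8 CPM at 0 h and 28.9, 32.1, 30.7 and 29.9 at 16 h, which did not overlap, but the change of 0.25 did not pass (adjusted p = 0.328). In LB1 the means were 16.9 at 0 h, 20.7 at 16 h and 12.3 CPM at 96 h. The 96 h libraries, 13.3, 12.7, 12.2 and 11.1 CPM, lay below the 0 h libraries, 18.1, 14.6 and 18.0, without passing (-0.50, adjusted p = 0.134). Before auxin ITGB8 was lower in LB2 than in parental cells, by -0.78 ± 0.17 (0.584-fold, adjusted p = 0.00193), with no overlap.

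The number of subunits whose libraries did not overlap was largest in LB1 at 96 h, 8 of 10, where 18.7% of all genes did not overlap. It was 4 of 10 in LAC at 96 h (17.6% of all genes), 3 of 10 in parental cells at both 16 h (20.3%) and 96 h (16.7%), 2 of 10 in LAC at 16 h (7.89%), 1 of 10 in LB2 at 16 h (4.97%) and at 96 h (13.5%), and 0 of 10 in LB1 at 16 h (16.2%). In LB1 at 96 h, 7 of these 8 were lower and ITGA2 was higher. All 4 calls in that comparison held in each of 16 alternatives.

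The changes in LAC were ordered by GC content, and those of the other lines were too, to a varying degree. Over the 10 subunits Spearman's rho between log2 change and GC content was -0.87 in LAC at both 16 and 96 h. At 16 and 96 h it was -0.83 and -0.61 in LB2, -0.22 and -0.75 in LB1, and -0.45 and -0.70 in parental cells. These values describe 10 genes measured in the same libraries. Over the 8547 well-measured genes, rho in parental cells at 96 h was 0.02. In LAC at 96 h the 6 subunits of low GC content had a median log2 change of 0.45 and the 4 of high GC content -0.45. With the GC trend removed these medians were 0.20 and -0.16. In LB1 at 96 h the medians were -0.27 and -0.92, and -0.30 and -0.79 after removal. In that line ITGA6, of low GC content, fell with ITGA3, ITGB4 and ITGB5. The part of base composition in the results for LAC was not tested beyond these fits.

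**Figure D4:**
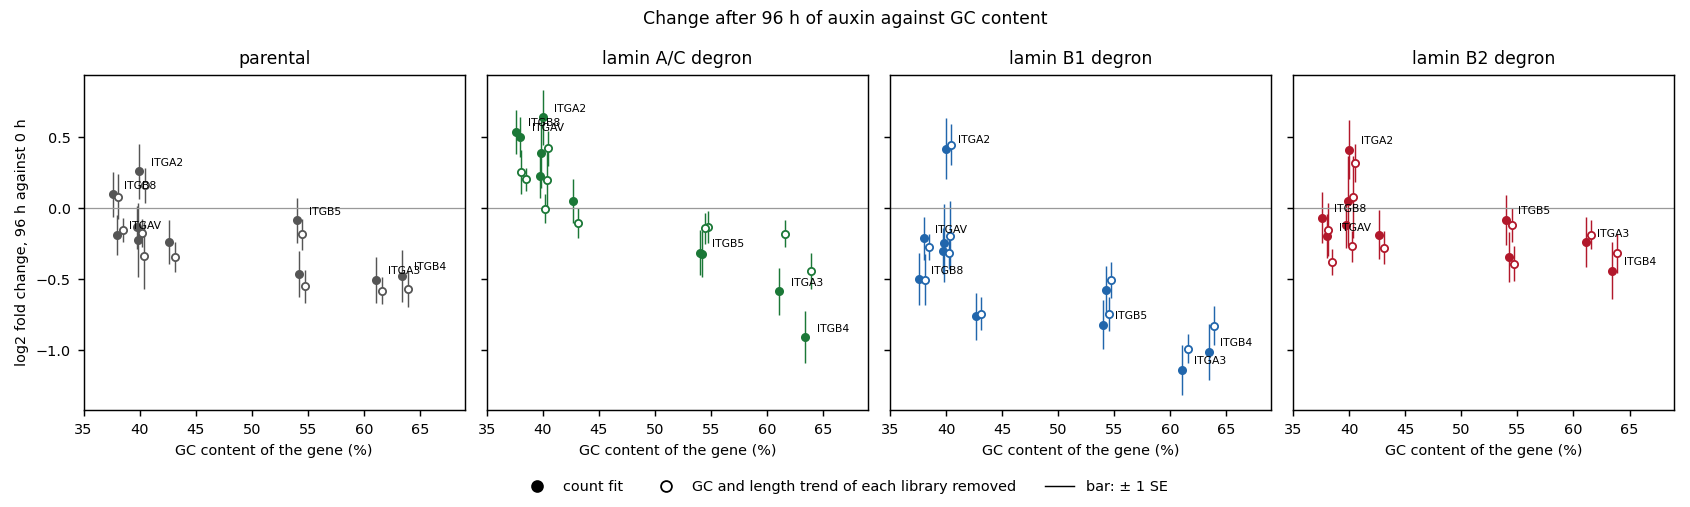
Log2 fold change of each subunit after 96 h of auxin against the GC content of its longest transcript, by line, from the count fit (filled) and with the trend of GC content and length removed from each library (open); bars are ± 1 SE. Points tend to fall from left to right in every line, with Spearman's rho from -0.61 in the lamin B2 line to -0.87 in the lamin A/C line. Those of the lamin A/C line tend to move toward 0 when the trend is removed, while ITGA3, ITGB4 and ITGB5 of the lamin B1 line stay low.

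Whether a tagged line responded differently from parental cells was tested as the difference of the 2 changes, and the comparisons share the parental libraries. Of 60 such tests on the 10 subunits, 1 passed: ITGAV in LAC at 96 h, with a difference of 0.69 ± 0.20 (adjusted p = 0.0275), where LAC changed by 0.51 and parental cells by -0.19. That made 1 of 10 in the comparison, against 7.40% of all genes, with 3.10% higher. Of all genes called there, 41.9% were higher, and 79.9% when scaled by library size. It was 0.36 with the GC trend removed (adjusted p = 0.0464) and 0.54 without LAC 0 h replicate 1 (adjusted p = 0.0944). It also missed the threshold without LAC 96 h replicate 2 or 3, parental 0 h replicate 1 or 2, or parental 96 h replicate 2 (0.61 to 0.68, adjusted p = 0.0578 to 0.104). In LB1 at 96 h, 0 of 10 passed against 1.04% of all genes, with 4 at an unadjusted p under 0.05 and 0 by DESeq2. The differences for the 4 subunits that fell there were -0.74 (95% interval -1.21 to -0.26, adjusted p = 0.111) for ITGB5, -0.63 (-1.12 to -0.15, adjusted p = 0.171) for ITGA3, -0.54 (-1.08 to 0.01, adjusted p = 0.312) for ITGB4 and -0.53 (-0.99 to -0.06, adjusted p = 0.234) for ITGA6. In the trend-removed fit ITGB5 passed at -0.56 (adjusted p = 0.0455).

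For ITGB8 at 16 h the difference from the parental change was 0.76 in LB2 (95% interval 0.29 to 1.23, adjusted p = 0.719) and 0.64 in LAC (0.20 to 1.09, adjusted p = 0.217). Neither passed, in comparisons where 0.00465% and 0.116% of all genes did; 0 of 10 subunits passed in each, with 2 and 4 at an unadjusted p under 0.05 and 0 and 1 by DESeq2. In LB1 at 16 h and LB2 at 96 h, 0 of 10 passed against 0.0279% and 0.368% of all genes, with 0 of 10 at an unadjusted p under 0.05 and 0 by DESeq2 in both.

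Before auxin, 1 of 10 subunits differed between LAC and parental cells, where 15.8% of all genes differed, 3 of 10 in LB1 (4.05%) and 4 of 10 in LB2 (8.21%), and all 8 were lower than in parental cells, as were 7.08%, 2.43% and 4.30% of all genes. Of all genes called, 55.1% were higher in LAC and 47.6% in LB2, and 23.8% and 33.1% when scaled by library size. The libraries of 3, 6 and 3 of the 10 did not overlap, against 16.7%, 16.5% and 10.4% of all genes. Those called were ITGAV in LAC, ITGA2, ITGA3 and ITGB5 in LB1, and ITGA3, ITGB4, ITGB6 and ITGB8 in LB2. The tagged lines were not tested against each other, so these lists do not show a difference between them. Without LAC 0 h replicate 1, ITGA3 was called lower in LAC (-0.49, adjusted p = 0.0349) and ITGAV was not called (-0.41, adjusted p = 0.0522). The trend-removed fit gave 5, 4 and 4, again all lower. In it ITGA3 was at -0.56 (adjusted p = 8.98e-05) and ITGB5 at -0.56 (adjusted p = 0.00161) in LB1, and in LB2 ITGA3 was at -0.42 (adjusted p = 0.000981), ITGB4 at -0.72 (adjusted p = 4.79e-05) and ITGB8 at -0.68 (adjusted p = 0.00563). The line, its derivation and the tag cannot be told apart in these comparisons.

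Ratios of counts within a library compare partner chains independently of library scaling. On the log2 scale, ITGA3 over ITGB1 was 1.00 ± 0.08 (SD, n = 4) in parental cells at 0 h and 0.62 ± 0.31 at 96 h, with ranges of 0.90 to 1.08 and 0.42 to 1.08. In LB1 it went from 0.63 ± 0.11 (n = 3) to -0.22 ± 0.19 (n = 4), with no overlap. In LAC it went from 0.84 ± 0.68 to -0.04 ± 0.28 (n = 4 each), with overlap. With the trend removed this ratio went from 0.95 to 0.55 in parental cells, with ranges of 0.77 to 1.09 and 0.49 to 0.61. It went from 0.67 to -0.002 in LB1 and from 0.33 to 0.14 in LAC. After that removal the 0 h and 96 h libraries overlapped in none of these lines. ITGB4 over ITGA6 went from 0.57 ± 0.64 to -0.46 ± 0.25 in LAC (n = 4 each), with no overlap, and from 0.13 ± 0.14 to -0.14 ± 0.35 in LB1, with overlap. In LB1 both chains of the hemidesmosome receptor fell; in LAC ITGB4 fell and ITGA6 did not pass the test. In the trend-removed values the ITGB4 ratio in LAC went from 0.07 to -0.26. ITGB8 and ITGAV have nearly the same GC content. Their mean ratio was higher at 16 h than at 0 h in every line, going from -4.10 to -3.74 in parental cells, -3.55 to -3.18 in LAC, -4.52 to -4.12 in LB1 and -4.59 to -3.66 in LB2, and libraries of the 2 times overlapped in LAC and LB2 only.

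**Figure D5:**
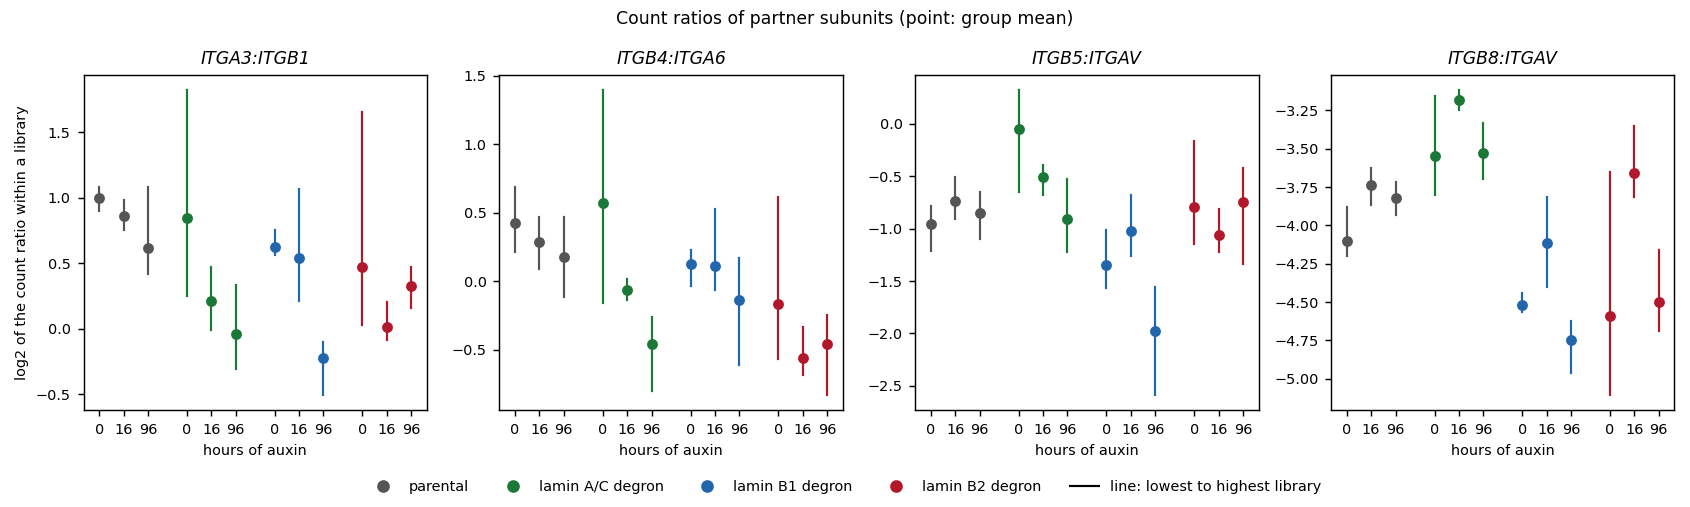
Log2 of the count ratio of partner subunits within each library, by line and hours of auxin; points are group means and lines span the lowest to the highest library. ITGA3 over ITGB1 is lowest in the lamin B1 line at 96 h (-0.22), and ITGB8 over ITGAV is higher at 16 h than at 0 h in every line.

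Among ligands, 9 of 11 laminin chains were tested, and at 96 h 1 fell in LB1, where 3.17% of all genes passed, 2 fell and 2 rose in LAC (15.4%), 1 fell in LB2 (3.55%) and 1 fell in parental cells (7.78%). The trend-removed fit called 6 lower in LB1, 3 lower and 2 higher in LAC, 1 lower in LB2 and 4 lower in parental cells. Of all 21484 genes, that fit called 873 lower and 664 higher in LB1 and 1531 and 1513 in LAC at 96 h. In LB2 it called 886 lower and 840 higher, and in parental cells 1831 and 1192. LAMB3, a chain of laminin-332, the ligand of alpha3-beta1 and alpha6-beta4, fell at 96 h in LB1 and LAC. In LB1 it went from 168 ± 24.4 to 82.3 ± 20.3 CPM (-1.02, adjusted p = 0.000676). In LAC it went from 209 ± 30.4 to 118 ± 20.6 CPM (-0.81, adjusted p = 0.00144, or -0.48 with the GC trend removed). LAMA5 fell in LAC at 96 h (-0.96, adjusted p = 0.00127, or -0.27 with the GC trend removed) and in LB2 at 16 h (-1.01, adjusted p = 0.00653) and 96 h (-0.80, adjusted p = 0.0399). LAMA3 and LAMA2 rose in LAC at 96 h, by 0.43 (adjusted p = 0.0314) and 0.50 (adjusted p = 0.0168). The median of the 9 was -0.44 in LB1 and -0.19 in LAC at 96 h, where the median of all genes was 0.04 and 0.03.

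Of 13 other ligands tested, 6 fell and 1 rose in LB1 at 96 h (3.17% of all genes passed), 5 fell and 1 rose in LAC (15.4%), 2 fell and 1 rose in LB2 (3.55%), and 2 fell and 1 rose in parental cells (7.78%). In the trend-removed fit 6 were lower and 2 higher in LB1, 4 and 1 in LAC, 2 and 1 in LB2, and 4 and 1 in parental cells. The all-gene counts of that fit are those given with the laminin chains. Tenascin-C (TNC) fell in parental cells (-1.73, adjusted p = 1.97e-05), LAC (-1.38, adjusted p = 0.000185) and LB1 (-2.16, adjusted p = 1.93e-05). CCN1, a matricellular ligand of alphaV integrins, fell at 96 h in all 4 lines, by -0.81 (adjusted p = 0.00103) in parental cells, -1.94 (adjusted p = 5.27e-12) in LAC, -1.56 (adjusted p = 2.63e-08) in LB1 and -1.78 (adjusted p = 2.75e-09) in LB2. Nephronectin (NPNT) rose at 96 h in parental cells (0.80, adjusted p = 0.00249), LAC (1.49, adjusted p = 1.33e-07) and LB2 (1.48, adjusted p = 3.25e-06). Against the parental change at 96 h, 2 of the 13 passed in each tagged line, all lower. Of all genes 7.40% passed in LAC, 1.04% in LB1 and 0.368% in LB2. The trend-removed fit of this difference called 2 lower in LAC, 3 lower in LB1, and 2 lower and 1 higher in LB2.

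Of 5 hemidesmosome partners tested, 2 fell in LAC at 96 h: PLEC, which encodes the linker of beta4 to keratins, from 1858 ± 868 to 638 ± 204 CPM (-1.54, adjusted p = 0.000129, or -0.87 with the GC trend removed), and CD151, a tetraspanin that binds laminin receptors (-0.52, adjusted p = 0.0366, or -0.03 with the GC trend removed, adjusted p = 0.883), where 15.4% of all genes passed. CD151 also fell in LB2 at 96 h (-0.76, adjusted p = 0.0139), where 3.55% passed, and was at -0.56 with the trend removed (adjusted p = 0.000342). The trend-removed fit called 1 of the 5 lower at 96 h in each of the 4 lines. Its all-gene counts at 96 h, given with the laminin chains, apply here and to the lists below. COL17A1, a hemidesmosome collagen, fell in parental cells at 16 h (-0.90, adjusted p = 0.00166) and 96 h (-0.63, adjusted p = 0.0262). Of the 5, 1 differed from the parental change at 96 h in LAC, lower, and 0 did in LB1 and LB2. Of all genes 7.40%, 1.04% and 0.368% did. The trend-removed fit gave the same counts for the 5. Of 25 cytoplasmic partners of integrin tails tested, 11 fell and 1 rose in LAC at 96 h (15.4% of all genes passed, 8.64% lower), 6 fell and 1 rose in LB1 (3.17%, with 2.12% lower), 3 fell and 3 rose in parental cells (7.78%), and 2 rose in LB2 (3.55%). The trend-removed fit called 9 lower and 2 higher in LAC, 7 and 3 in LB1, 8 and 4 in parental cells, and 4 and 3 in LB2. FLNA, the actin crosslinker filamin A, fell in LAC (-1.32, adjusted p = 6.43e-07) and LB1 (-1.35, adjusted p = 1.59e-06), as did TLN1, the integrin activator talin-1 (-0.95, adjusted p = 4.21e-05, and -0.69, adjusted p = 0.0115). With the trend removed FLNA was at -0.92 in LAC and -1.21 in LB1, and TLN1 at -0.66 and -0.60. Tested against the parental change at 96 h, 5 of the 25 cytoplasmic partners passed in LAC, all lower, where 7.40% of all genes passed. In LB1 (1.04%) and LB2 (0.368%) 0 of the 25 passed. The trend-removed fit of this difference called 2 lower and 1 higher in LAC, 2 lower in LB1 and 1 higher in LB2. TLN2 rose in LB2 at 96 h (0.95, adjusted p = 5.41e-06). Of 11 inhibitors and trafficking genes tested, 1 rose and 2 fell in LAC at 96 h (15.4% of all genes passed) and 1 fell in LB2 (3.55%). With the trend removed 2 were higher and 1 lower in LAC, 1 lower in LB2, and 1 higher and 2 lower in parental cells. The tetraspanin CD9 rose in LAC (0.51, adjusted p = 0.00762). Of the 11, 2 in LAC and 1 in LB1 differed from the parental change at 96 h, all higher, and 0 did in LB2. Of all genes 7.40%, 1.04% and 0.368% differed. The trend-removed fit of this difference called 1 higher in LAC, 1 higher and 1 lower in LB1, and 0 in LB2.

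Of the 11 other integrins tested, ITGA9, a tenascin-binding alpha chain, rose at 16 h in parental cells from 2.98 ± 0.91 to 7.00 ± 0.88 CPM (1.29, adjusted p = 0.00248) and in LAC from 2.02 ± 0.74 to 5.51 ± 0.88 CPM (1.35, adjusted p = 0.00541). At 96 h it rose in parental cells (0.87, adjusted p = 0.0471), LAC (0.95, adjusted p = 0.0138) and LB2 (1.17, adjusted p = 0.0209). ITGA1 was lower than in parental cells in all 3 tagged lines before auxin, by -1.16 in LAC (adjusted p = 5.37e-05), -1.31 in LB1 (adjusted p = 0.000108) and -0.87 in LB2 (adjusted p = 0.00362). It fell further in LB1 at 96 h, from 11.6 ± 3.25 to 5.25 ± 1.76 CPM (-1.01, adjusted p = 0.00596), and fell in parental cells at 96 h (-0.79, adjusted p = 0.00722).

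Across the 12 group means, the pairs of subunits with the highest Pearson r of log2(CPM + 0.5) were ITGA6 and ITGB5 (0.84), ITGA3 and ITGB4 (0.83), ITGA3 and ITGA5 (0.80) and ITGB1 and ITGB5 (0.80). The known partners ITGA6 and ITGB4 had 0.73, ITGA6 and ITGB1 0.76, ITGA3 and ITGB1 0.55, ITGAV and ITGB5 0.28, ITGAV and ITGB6 0.46 and ITGAV and ITGB8 0.61. ITGA2 and ITGB1 had 0.57, and ITGA5 and ITGB1 0.27. With the trend removed ITGAV and ITGB5 had 0.59, ITGAV and ITGB6 0.19 and ITGAV and ITGB8 0.62. ITGA6 and ITGB4 then had 0.83, and ITGB1 had 0.72 with ITGA6, 0.69 with ITGA3, 0.38 with ITGA2 and 0.34 with ITGA5. The pairs named first then had 0.83 for ITGA6 and ITGB5, 0.71 for ITGA3 and ITGB4, 0.72 for ITGA3 and ITGA5, and 0.86 for ITGB1 and ITGB5. Of 10152 other genes averaging at least 5 CPM, the most alike were DPYSL2 (0.99) and ECE1 (0.96) for ITGB5, WFS1 (0.95) and LITAF (0.93) for ITGA3, MYORG and FOSL2 (both 0.95) for ITGB4, SEC22C (0.96) for ITGB8, NR1D2 (0.95) and CLIC4 (0.94) for ITGA6, and ERRFI1 (0.96) and SGPP1 (0.91) for ITGB1. For ITGB6 they were TBC1D20 (0.96) and RCBTB1 (0.95), for ITGA2 B3GNT3 and OTUB2 (both 0.94), for ITGA5 TEP1 (0.93) and MAPK3 (0.90), and for ITGAV PCGF5 (0.88) and ATP6AP2 (0.85). These values describe 12 means that share lines, libraries and base composition, and carry no test.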

How the data were processed

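Total RNA depleted of ribosomal RNA, which keeps intronic and unpolyadenylated RNA, was sequenced from 46 libraries, and the authors deposited raw counts per gene in 1 table, made with featureCounts 1.6.4 per the file headers. Per the submitters' processing notes, STAR 2.7.10a, SAMtools 1.10, deepTools 3.4.5, DESeq2 1.40.2 and build GRCh38 were also used. Whether the counting used strand is not given in the sources used here. One gene broken over 3 lines was left out, and 0 count columns matched no library. Symbols were found for 66.62% of genes.

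The deposited counts were scaled by TMM and tested with edgeR 4.0.16 (R 4.3.3) as 1 quasi-likelihood fit over the 12 groups and the 21484 genes kept by its low-count filter, with Benjamini-Hochberg adjustment over all of them per comparison and a threshold of 0.05. The scripts were tested on simulated data. Each of the 10 subunits is named, and from each partner list those passing the test with the largest changes (at most 4 per comparison); the 2 genes most like each subunit were ranked among genes averaging at least 5 CPM, on log2(CPM + 0.5). Some genes that this rule names are not reported here. The subunits, lists and tests were chosen with earlier results of these data known. The GC trend was removed per library with splines of 5 degrees of freedom on GC content and length, known for 95.19% of tested genes. Alternatives were RLE scaling, library size alone, no filter, a replicate block, limma 3.58.1 voom with quality weights, DESeq2 1.42.0, the compared groups alone, leaving out each library, and leaving out 6 libraries under 5000000 counts. The principal transcript as a length was added after seeing the data. Chi-square per degree of freedom was at least 4.90 in each of 66 replicate pairs, so no pair agreed within sampling noise. Same-numbered wells deviated together in every pair in 1 of 11 comparisons, so numbers were not taken to pair samples.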

Additional observations from a re-analysis of the deposited data

Results flagged for a closer look

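Of 100 sets of 4 libraries checked (a subunit in a group), 6 held a library far from the other 3, where chance gives about 1 in 20. LB2 0 h replicate 1 gave 3 of these, with 454 CPM of ITGA3 where the others had 247 to 277, 420 CPM of ITGB4 against 232 to 254 and 144 CPM of ITGB1 against 236 to 250. LAC 16 h replicate 1 had 179 CPM of ITGA2 against 216 to 219, LAC 16 h replicate 3 had 351 CPM of ITGB5 against 280 to 288, and PAR 96 h replicate 2 had 384 CPM of ITGA3 against 286 to 295. The change of ITGAV at 96 h differed between LAC and parental cells by 0.69 on the log2 scale, by edgeR's test of the difference itself.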

How the results depend on the processing

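Of 3300 alternative values of the 170 subunit tests, 3152 stayed on the same side of the threshold, 68 lost a call and 79 gained one, and 232 uncalled values had the other sign. Of the 22 called results, 6 kept the call in every alternative, and none changed sign. One uncalled result reversed: the ITGA3 difference between the changes of LAC and parental cells at 96 h went from -0.08 to a called 0.40 with the GC trend removed (edgeR, adjusted p = 0.0452). Where the number of subunits called moved by over 1.5 times, the trend-removed fit gave 1 for PAR 16 h, 4 for PAR 96 h, 1 for LAC 16 h, 2 for LAC 96 h, 3 for LB2 16 h, 2 for LB2 96 h, 5 for LAC against PAR at 0 h, 2 for the LAC difference from the parental change at 96 h and 1 for that of LB1. Of all genes, the trend-removed fit called 1192 higher and 1831 lower for PAR 96 h, against 847 and 824 in the main fit. For LAC 96 h it called 1513 and 1531, against 1447 and 1857. RLE scaling gave 3 for PAR 96 h, 1 for LAC 16 h and 2 for LAC at 0 h. Scaling by library size gave 3, 1 and 4 for these, 2 for LB2 16 h and 2 for the LAC difference at 96 h. Fitting all genes, without the filter, gave 0 for PAR 96 h, 0 for the LAC difference at 96 h and 1 for LB1 at 0 h. Voom gave 2 for PAR 16 h, 3 for PAR 96 h, 4 for LAC 16 h, 1 for LB2 96 h, 4 for LAC at 0 h, and, as differences from the parental change, 2 for LAC at 16 h, 2 for LB1 at 96 h and 1 for LB2 at 96 h. DESeq2 gave 3 for PAR 96 h, 3 for LB2 16 h, 3 for LAC at 0 h and 1 for the LAC difference at 16 h. The compared groups alone gave 3 for PAR 16 h, 3 for PAR 96 h, 0 for LAC 16 h, 3 for LAC 96 h, 0 for LB2 16 h, 3 for the LB1 difference at 96 h, 5 for LB1 at 0 h and 1 for LB2 at 0 h. Without the 6 libraries under 5000000 counts there was 1 for LAC 16 h and 2 for LAC at 0 h. Leaving out 1 library gave 0 to 1 for PAR 96 h, 1 to 4 for LAC 16 h, 3 to 5 for LAC 96 h, 4 to 5 for LB1 96 h, 1 to 2 for LB2 16 h, 0 to 1 for the LAC difference at 96 h, 1 to 1 for LAC, 0 to 2 for LB1 and 2 to 4 for LB2 at 0 h, and 0 to 0 elsewhere. A replicate block, fitted although the wells share a number and no more, kept 22 of 22 calls and gained 2, with 2 for LAC at 0 h. The causes were not tested. The median change of all genes depended on scaling: for the LAC difference at 96 h it was 0.06, and 0.27 when scaled by library size, the widest such shift. Of 240 group levels, 13 moved by more than 1 SD under another scaling. Depth limits ITGB6 most, with 0 to 298 counts in a library.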
